A study of Saccharomyces cerevisiae with 11 samples.

Results

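The genes described here are 10 genes of iron uptake in Saccharomyces cerevisiae: the cell-wall mannoprotein genes FIT1, FIT2 and FIT3, the reductive uptake genes FTR1 and FET3, the siderophore transporter genes ENB1 and ARN1, and the reductase genes FRE1, FRE3 and FRE5. They were chosen by name, through probe sets annotated to a single gene, and each had 1 such probe set, so 10 of the 5656 genes on the array were taken. The strain lacks RIM15, a protein kinase below nutrient signalling, in the prototrophic laboratory background CEN.PK113-7D, and all samples carry this deletion. All cultures were anaerobic and limited by glucose, at pH 5 and a dilution rate of 0.025 per h. Growing cells were taken from 3 chemostat cultures, while 2 retentostat cultures, whose outflow passes a filter that keeps the cells in and so brings growth close to a halt, were sampled on days 2, 9, 16 and 20. The 11 arrays therefore fall into 5 groups, and as no wild-type samples were analysed here, each value describes the mutant over time.

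Yeast takes up scarce iron in more than a single way. Surface reductases of the FRE family convert ferric to ferrous iron, which the multicopper ferroxidase Fet3 and the permease Ftr1 then carry inward together; the Fet3 reaction consumes oxygen. Siderophores, the iron carriers that microbes secrete, enter through transporters of the ARN family after being held in the cell wall with the help of the Fit mannoproteins. Most of these genes are switched on when iron is short by the transcription factors Aft1 and Aft2, which respond to iron-sulfur cluster synthesis in mitochondria through Grx3, Grx4 and Fra2.

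The genes were proposed after their signals at all 5 sampling points had been seen, so their levels are given as a description and without a test. The unit is the linear probe-set signal as deposited, in which levels of different genes cannot be set against each other. Signals at or under 12 were taken as not above background. Array medians ran from 85.3 to 122.1, and the RIM15 probe set (YFL033C) lay at or under 12 on 10 of the 11 arrays, with signals from 0.4 to 13.9 (whether it lies in the deleted part was not checked). On the culture 2 arrays of days 9, 16 and 20 the 3' to 5' ratio of the ACT1 control probe sets was 27.0, 217 and 31.8, whereas the other 8 arrays gave 0.966 to 2.03. Culture 1 is therefore also given alone below. The number of arrays limits the precision, and in bulk RNA a change per cell and a change in the share of expressing cells cannot be told apart.

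The 10 genes formed 2 groups. For FIT2, FIT3, FTR1, FET3, ENB1 and FRE5, all 6 arrays of days 9, 16 and 20 lay below all 5 arrays of the chemostat and day 2. ARN1, FIT1, FRE1 and FRE3 overlapped between these sets. Of all 5577 genes tested, 3.50% had the 6 later arrays below the 5 earlier ones, and 13.3% had them above, as no gene of the 10 did. With the culture 1 arrays alone the same 6 genes were below (5.85% of all genes) and FIT1 was above (20.5% of all genes). This way of sorting the genes was chosen after their values had been seen, and nothing is read from the 6 of 10. Across the 11 arrays the log2 signals of the 6 genes correlated pairwise with Pearson's r from 0.86 to 0.99, a description in which the step between day 2 and day 9 is shared by all of them.

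**Figure D1:**
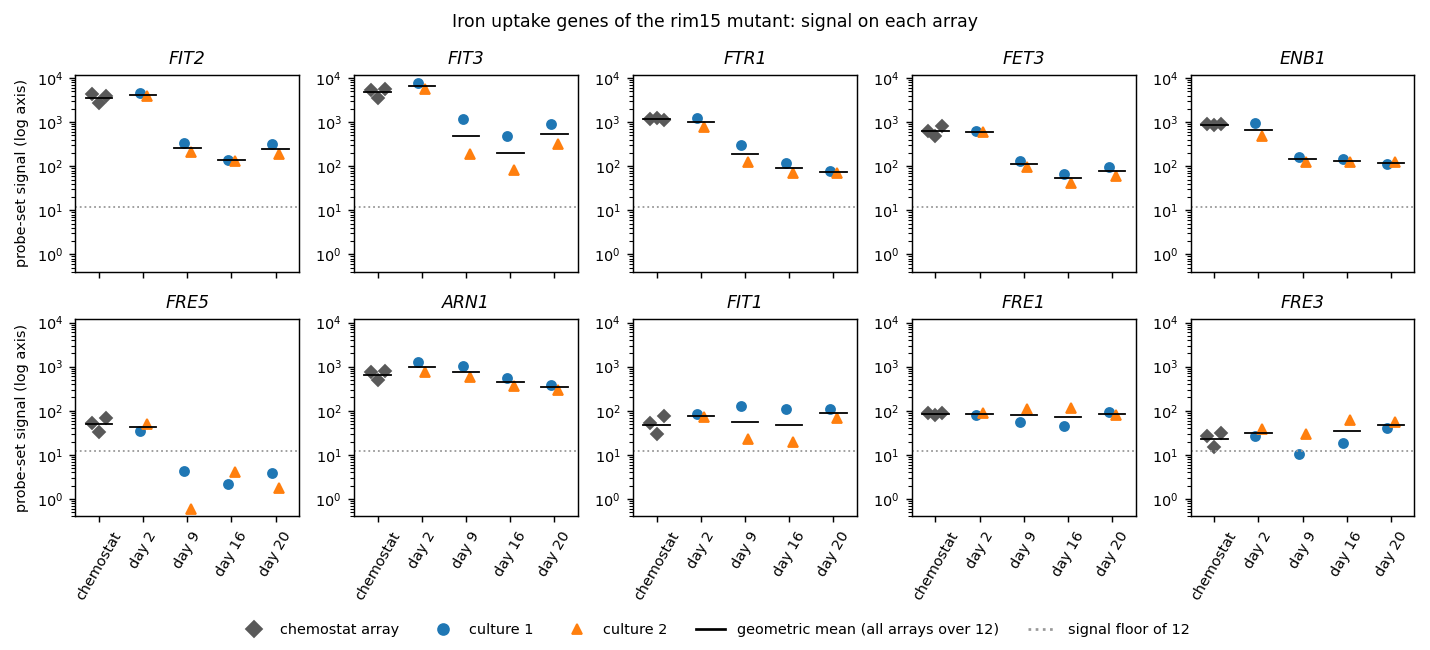
Probe-set signal (log axis) of the 10 iron uptake genes on each array, for the chemostat (diamonds) and for culture 1 (circles) and culture 2 (triangles) on each retentostat day; horizontal lines are geometric means where all arrays lie over the floor of 12 (dotted). The 6 genes FIT2, FIT3, FTR1, FET3, ENB1 and FRE5 lie lower on all arrays of days 9, 16 and 20 than on any chemostat or day 2 array, down to 0.6 to 4.4 for FRE5.

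FIT2 (YOR382W) and FIT3 (YOR383C) encode cell-wall mannoproteins that help retain siderophore iron. FIT2 gave signals of 4384, 2704 and 3882 in the chemostat, 4466 in culture 1 and 3962 in culture 2 on day 2, 336 and 210.2 on day 9, 140.5 and 133 on day 16, and 311.5 and 189.7 on day 20. The chemostat and day 2 overlapped, and the lowest of these 5 signals was 8.05 times the highest later one. The chemostat mean of 3656 ± 862 (SD, n = 3) compared with 137 ± 5.16 (SD, n = 2) on day 16, a geometric mean 26.2-fold lower, and with geometric means 13.5-fold lower on day 9 and 14.7-fold lower on day 20. Day 16 lay below days 9 and 20, which overlapped.

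FIT3 gave signals of 5377, 3481 and 5536 in the chemostat, 7703 and 5744 on day 2, 1189 and 188 on day 9, 496 and 80.6 on day 16, and 894 and 317 on day 20, in the order culture 1, culture 2. Day 2 lay above the chemostat without overlap, by 0.50 on the log2 scale. The geometric mean of the following samplings was below the chemostat 9.93-fold (day 9), 23.5-fold (day 16) and 8.83-fold (day 20). The cultures differed more for FIT3 than for the other genes of this pattern that stayed above background. Over the 3 later days its signal in culture 1 was 4.79 times that in culture 2, against 1.66 times or less for FIT2, FTR1, FET3 and ENB1. FRE5 lay under the floor in both cultures and cannot be compared. The culture 2 arrays are those with the high ACT1 ratio, and the part of this ratio in the difference was not tested.

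FIT1 (YDR534C), the third mannoprotein gene, did not share the pattern. Its signals were 52.3, 29.3 and 74.3 in the chemostat and 84.0 and 70.3 on day 2. On days 9, 16 and 20 culture 1 gave 129, 109 and 111, and culture 2 gave 23.1, 19.8 and 68.8. Culture 1 was thus above all earlier arrays on each later day, while culture 2 lay below the retentostat's day 2 level, and below all chemostat arrays on days 9 and 16. Over the 3 later days the signal of culture 1 was 3.67 times that of culture 2. The mean of both cultures differed from the chemostat on the log2 scale by 0.17 (day 9), -0.06 (day 16) and 0.85 (day 20), and the first of these turned to -0.12 under median scaling.

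FTR1 (YER145C) encodes the high-affinity iron permease and FET3 (YMR058W) the ferroxidase that works with it. FTR1 gave signals of 1195, 1228 and 1101 in the chemostat, 1262 and 777 on day 2, 301 and 124 on day 9, 119 and 70.7 on day 16, and 78.2 and 69.9 on day 20. Unlike FIT2 and FIT3, its lowest mean was that of day 20, at 74.0 ± 5.87 (SD, n = 2) against 1175 ± 65.9 (SD, n = 3) in the chemostat, which is 15.9-fold lower. Days 16 and 20 overlapped, and day 9 lay above both.

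FET3 signals were 626, 493 and 812 in the chemostat and 619.9 and 606 on day 2. They were 133 and 97.3 on day 9, 66.6 and 42.2 on day 16, and 98.0 and 59.2 on day 20. The chemostat mean of 644 ± 160 (SD, n = 3) was held on day 2, at 613 ± 9.76 (SD, n = 2). Geometric means were 5.54-fold lower (day 9), 11.9-fold lower (day 16) and 8.28-fold lower (day 20), and the pairs of day 20 overlapped those of days 9 and 16. The step from day 2 to day 9 was -2.36 for FTR1 and -2.43 for FET3 on the log2 scale, and the further step to day 16 was -1.07 and -1.10.

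ENB1 (YOL158C) encodes the transporter of enterobactin, a bacterial siderophore. Its signals were 889, 861 and 900.0 in the chemostat, 953 and 477 on day 2, 162 and 125 on day 9, 144 and 122.3 on day 16, and 112 and 125.5 on day 20. The later 3 days overlapped one another, and ENB1 differed from the chemostat by -2.63, -2.74 and -2.90 on the log2 scale. In culture 1 the signal was lower at each of these samplings (162, 144 and 112), while culture 2 gave 125, 122.3 and 125.5. Culture 1 over culture 2 was 1.11 on these days, the closest match between cultures among the 5 genes of this pattern that stayed above background.

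ARN1 (YHL040C), which encodes a transporter of ferrichrome-type siderophores, followed a slower course. Its signals were 739.5, 492 and 781 in the chemostat, 1243 and 767 on day 2, 1051 and 570.1 on day 9, 543 and 367 on day 16, and 384 and 301 on day 20. Against the chemostat the log2 difference was 0.57 at day 2, 0.24 at day 9 (-0.05 under median scaling), -0.56 at day 16 and -0.95 at day 20. The day 20 pair lay below all chemostat, day 2 and day 9 arrays and overlapped the day 16 pair. In both cultures the signal was lower at each successive sampling.

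The 3 reductase genes differed among themselves. FRE5 (YOR384W), which encodes a putative ferric reductase, gave 54.0, 33.8 and 67.0 in the chemostat and 34.2 and 51.3 on day 2, then 4.4 and 0.6 on day 9, 2.2 and 4.1 on day 16 and 3.8 and 1.8 on day 20. All 6 later signals lay under the floor, so the chemostat level was at least 4.14-fold higher on each of these days, and the later days have no order.

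FRE1 (YLR214W) encodes the main surface reductase for ferric iron and copper, and its level stayed close to that of the chemostat. Signals were 86.7, 78.9 and 90.2 in the chemostat, 81.2 and 87.5 on day 2, 56.9 and 111.5 on day 9, 44.1 and 117 on day 16, and 93.8 and 79.5 on day 20. The log2 difference from the chemostat lay between -0.25 and 0.02 over the 4 samplings, smaller than the difference between the cultures on days 9 and 16, and that of day 20 turned from 0.02 to -0.42 under quantile or median scaling. On days 9 and 16 culture 1 lay below the chemostat and culture 2 above it.

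FRE3 (YOR381W), a reductase of siderophore-bound iron, was dim. It gave 26.8, 15.3 and 30.6 in the chemostat, 26.1 and 38.1 on day 2, 10.4 and 29.7 on day 9, 18.8 and 60.8 on day 16, and 41.6 and 56.5 on day 20. The day 20 pair lay above all chemostat arrays, by 1.06 on the log2 scale, but overlapped day 16.

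**Figure D2:**
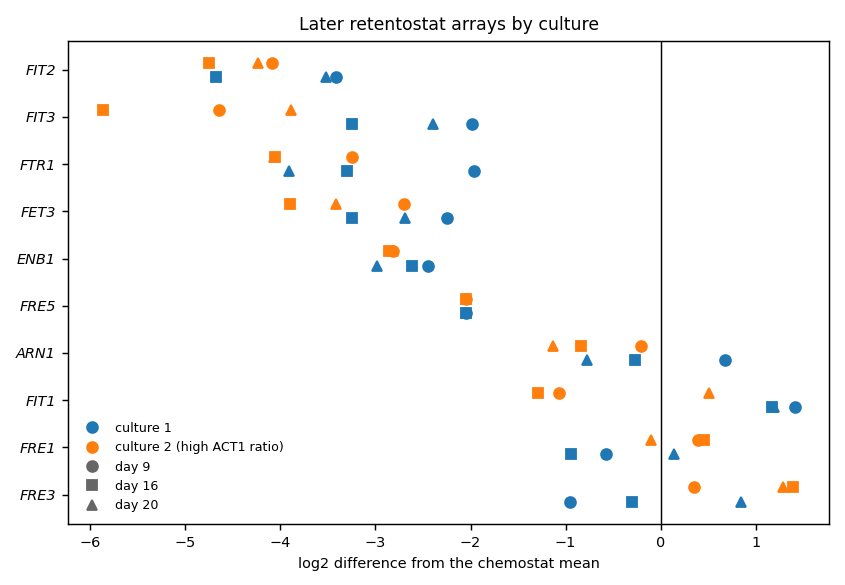
Log2 difference of each later retentostat array from the chemostat mean for the 10 genes, by culture (colour) and day (marker). FIT2, FIT3, FTR1, FET3, ENB1 and FRE5 lie below 0 in both cultures, with FRE5 held at the floor, whereas FIT1, FRE1 and FRE3 show the cultures on different sides of 0 on days 9 and 16.

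In culture 1 alone, whose arrays had ACT1 ratios like those of the chemostat, the log2 differences of the 6 genes ran from -3.41 to -1.96 at day 9, from -4.67 to -2.05 at day 16 and from -3.91 to -2.05 at day 20. Over both cultures the median of the 10 genes was 0.11 on day 2, equal to the median of 0.11 over all genes. For the later samplings it was -2.26, -2.39 and -2.47, where all genes had medians of 0.25, 0.35 and 0.36; median scaling moved the latter to -0.02, -0.02 and -0.06 and quantile scaling to 0.07, 0.09 and 0.07. For the genes outside the 10, a linear model across all genes (limma) was used, where a gene passes or is called at an adjusted p under 0.05. In it 3.68%, 4.32% and 3.01% of all genes passed as lower on days 9, 16 and 20. On day 2, 0.0179% of all genes passed in either direction. The 10 genes were proposed from the same contrasts, so no calls are given for them.

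Of the 10 genes, 4 lie next to each other. In the reference gene order FRE3, FIT2, FIT3 and FRE5 follow one another on chromosome XV, with only YOR381W-A, not analysed here, between FRE3 and FIT2. FIT3 is read from the opposite strand to the other 3, so that FIT2 and FIT3 point toward each other and FIT3 and FRE5 away from each other. FIT2, FIT3 and FRE5 were low from day 9 and FRE3, at the edge of the run, was not. None of the 4 measured flanking genes had all later arrays below the earlier ones. Only 3.50% of all genes did, so nothing is read from this count. YOR385W, uncharacterised, and PHR1, the DNA photolyase gene, lie beyond FRE5. Their log2 differences from the chemostat were -0.60 ± 0.41 and -0.62 ± 0.40 (SE) at day 9, -0.65 ± 0.41 and -1.15 ± 0.40 at day 16, and 0.12 ± 0.41 and -0.26 ± 0.40 at day 20. PHR1 gave 38.1 and 46.8 on day 16, against 103, 73.9 and 109 in the chemostat. Neither passed on any day (limma, lowest adjusted p = 0.0671, PHR1 on day 16, and adjusted p = 0.0396 there with the replicate block, a fixed term for the retentostat culture). Against the chemostat, p-values with this block leave out the spread between cultures.

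On the other side of the run, RDR1, a transcription repressor of drug-resistance genes, was at 1.06 ± 0.39 on day 20 (adjusted p = 0.0993, and adjusted p = 0.0337 with the block). AMF1, beyond it, was higher by 2.33 ± 0.46 on day 20 (adjusted p = 0.0131), a dim gene with chemostat signals of 8.7, 13.2 and 9.5 and retentostat signals from 22.5 to 86.1. The AMF1 call of day 20 ended without either day 20 array, at an adjusted p of up to 0.108, and with a floor of 50 (adjusted p = 0.326). The AMF1 calls of days 9 and 16 (log2 difference 1.62 ± 0.46 and 1.73 ± 0.46, adjusted p = 0.0419 and 0.0272) ended under quantile and median scaling and a floor of 50. The day 9 call also ended without any array of the chemostat or of days 2, 9 or 20 (adjusted p up to 0.139), and the day 16 call without any chemostat array or the culture 1 array of day 16 (adjusted p up to 0.0878).

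**Figure D3:**
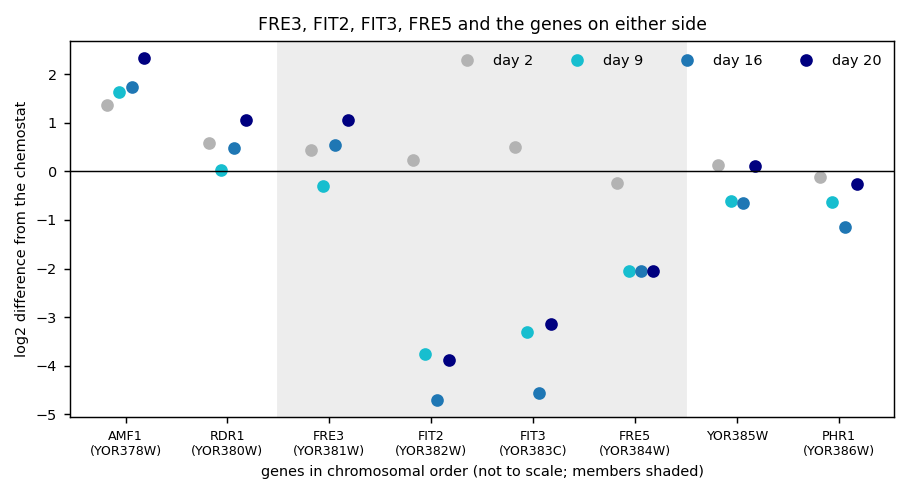
Log2 difference from the chemostat on each retentostat day for FRE3, FIT2, FIT3 and FRE5 (shaded) and the 2 measured genes on each side, in chromosomal order and not to scale. FIT2, FIT3 and FRE5 lie between -2.05 and -4.71 from day 9, while FRE3 and the 4 flanking genes lie between -1.15 and 2.33.

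The rest of the Aft1 and Aft2 regulon was tested as a list of 20 genes without the 10, of which 18 could be tested. ARN2, a further siderophore transporter gene, stayed under the floor on all arrays, and LSO1 had no probe set. Of these 18, FRE6, HMX1 and CTH2 had all 6 later arrays below the 5 earlier ones (3.50% of all genes did, by the same rule chosen after values had been seen). None of the 18 passed on day 2, day 9 or day 20 (limma, unadjusted p under 0.05 for 3, 8 and 7 genes, or 16.7%, 44.4% and 38.9%, beside 8.57%, 30.8% and 31.6% of all genes), and on day 16 a total of 2 fell and 2 rose, which is 11.1% in each direction, where 4.32% of all genes fell and 16.6% rose. The medians of the list were 0.43, -0.26, -0.23 and -0.01 on days 2, 9, 16 and 20, beside 0.11, 0.25, 0.35 and 0.36 over all genes.

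The genes that fell on day 16 were CTH2 and FRE6. CTH2 (YLR136C, TIS11 in the gene table) encodes a protein that binds and destabilises mRNAs of iron-using proteins. Its signals were 283, 399 and 521 in the chemostat, 505 and 550.4 on day 2, 209 and 121 on day 9, 167 and 53.5 on day 16, and 208 and 160.1 on day 20. All 6 later arrays thus lay below the 5 earlier ones. The log2 difference on day 16 was -2.04 ± 0.47 (SE, limma adjusted p = 0.0167). The call ended when chemostat array 3 was left out (adjusted p = 0.0614), or the day 16 array of culture 2 (adjusted p = 0.110), or all 3 arrays whose ACT1 ratio was high (adjusted p = 0.0903). It also ended when only the 2 groups were fitted (adjusted p = 0.0648).

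FRE6 (YLL051C), a vacuolar metalloreductase gene, had a chemostat mean of 173 ± 12.0 (SD, n = 3) and a day 16 mean of 90.5 ± 11.2 (SD, n = 2), a log2 difference of -0.94 ± 0.26 (SE, adjusted p = 0.0313). Its later arrays also lay below all earlier ones. The call ended without any chemostat array (adjusted p = 0.0713, 0.0860 and 0.0866) and when the day 16 array of culture 2 was left out (adjusted p = 0.139).

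FTH1 (YBR207W), the relative of FTR1 in the vacuolar membrane, moved the other way, from 410.1 ± 66.1 (SD, n = 3) in the chemostat to 833 ± 64.3 (SD, n = 2) on day 16, which is a difference on the log2 scale of 1.03 ± 0.26 (SE, adjusted p = 0.0230). Its level was already 709 ± 64.6 (SD, n = 2) on day 2. Every retentostat array (551 to 883) lay above the chemostat arrays (345 to 477). FRE4 (YNR060W), a reductase gene, rose from 31.3 ± 2.24 (SD, n = 3) to 99.3 ± 29.8 (SD, n = 2), by 1.64 ± 0.46 (SE, adjusted p = 0.0360). Both calls depended on the scaling: the FTH1 call ended with the quantile method (adjusted p = 0.0528) and with the median method (adjusted p = 0.0950), and so did the FRE4 call (adjusted p = 0.0852 and 0.0818). With a floor of 50 the FRE4 call ended as well (adjusted p = 0.111). Leaving out the 3 arrays whose ACT1 ratio was high ended the FTH1 call (adjusted p = 0.0617). The FTH1 call also ended without chemostat array 1 or 3 or the culture 2 array of day 16 (adjusted p up to 0.108). The FRE4 call ended without any array of the chemostat, day 2 or day 20, or without the culture 2 array of day 16 (adjusted p up to 0.199).

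The retentostat arrays of a replicate number come from the same culture, and with this culture as a fixed block term the list had more calls, as did all genes. The term takes the difference between the 2 retentostat cultures out of the error. Its p-values against the chemostat therefore do not measure the spread between cultures. Culture 2 also had the high ACT1 ratio on days 9, 16 and 20, and culture and ratio cannot be told apart there. With the culture as a random block the list kept counts of 0, 4 and 0 on days 9, 16 and 20. Under the fixed block 4 genes passed on day 9, where 26.3% of all genes did: CTH2 (-1.29 ± 0.37, SE, adjusted p = 0.0298) and FRE6 (-0.63 ± 0.21, adjusted p = 0.0495) as lower, and FET5 (0.87 ± 0.27, adjusted p = 0.0389) and FTH1 (0.78 ± 0.25, adjusted p = 0.0414) as higher. Fet5 and Fth1 form the vacuolar counterpart of Fet3 and Ftr1. On day 16 it was 7 (36.0% of all genes), with AKR1 and MRS4 added as lower and FET5 as higher, and on day 20 it was FET5 alone (27.0% of all genes). In the comparison of day 20 with day 2, which uses no chemostat array and in which 0.592% of all genes passed, no gene of the list passed without the block, where 5 had an unadjusted p under 0.05 (27.8%, beside 13.6% of all genes). HMX1, the heme oxygenase gene, then passed with it (-1.27 ± 0.29, adjusted p = 0.0399), where 4.70% of all genes did.

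HMX1 gave 83.6, 91.2 and 77.7 in the chemostat, 161.5 and 104 on day 2, and 44.0 to 66.4 on the 6 later arrays, all below the earlier ones. SIT1, the transporter gene for ferrioxamine-type siderophores, was at -1.70, -1.88 and -1.81 on days 9, 16 and 20 and did not pass (adjusted p = 0.147, 0.0938 and 0.125), with chemostat signals of 613, 162 and 508. CCC2 and ATX1, which deliver copper for Fet3, were at 0.31 ± 0.28 and -0.13 ± 0.31 on day 9 and at -0.01 ± 0.28 and -0.28 ± 0.31 (SE) on day 20, with no call. On day 2 CCC2 gave 434.5 and 277, above its chemostat signals of 161 to 246, also without a call.

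Of the 7 iron regulator genes, FRA2 alone passed, on days 9 and 16. FRA2 (YGL220W, BOL2 in the gene table), a partner of Grx3 and Grx4 in holding Aft1 inactive when iron is sufficient, rose from 642 ± 59.7 (SD, n = 3) to 1295 ± 18.6 on day 9 and 1278 ± 169 on day 16 and was back at 750.5 ± 15.6 (SD, n = 2 each) on day 20. The log2 differences were 1.02 ± 0.20 (SE, adjusted p = 0.0121), 0.99 ± 0.20 (adjusted p = 0.0112) and 0.23 ± 0.20 (adjusted p = 0.465). On day 9, where 15.1% of all genes passed in either direction, the call ended without chemostat array 3 (adjusted p = 0.0542). On day 16, where 20.9% did, leaving out that day's culture 2 array ended it (adjusted p = 0.0575), as did median scaling (adjusted p = 0.0692).

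GRX4, the glutaredoxin gene, gave 448, 466 and 432 in the chemostat and 534 to 1070.0 on the 6 later arrays, without overlap. Of all genes, 13.3% had the 6 later arrays above the 5 earlier ones, as GRX4 did. It missed the threshold (0.95 ± 0.30 on day 9, adjusted p = 0.0590). It passed with the block on days 9 and 16 (adjusted p = 0.0189 and 0.0249), where 26.3% and 36.0% of all genes did. AFT1, the activator gene, was at 0.36 ± 0.37 on day 2, -0.20 ± 0.37 on day 9, -0.38 ± 0.37 on day 16 and -0.58 ± 0.37 (SE) on day 20, and AFT2 at 0.04 to 0.71 ± 0.47. GRX3, FRA1 and YAP5, the last an activator of vacuolar iron storage, lay between -0.65 and 0.92 with no call.

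**Figure D4:**
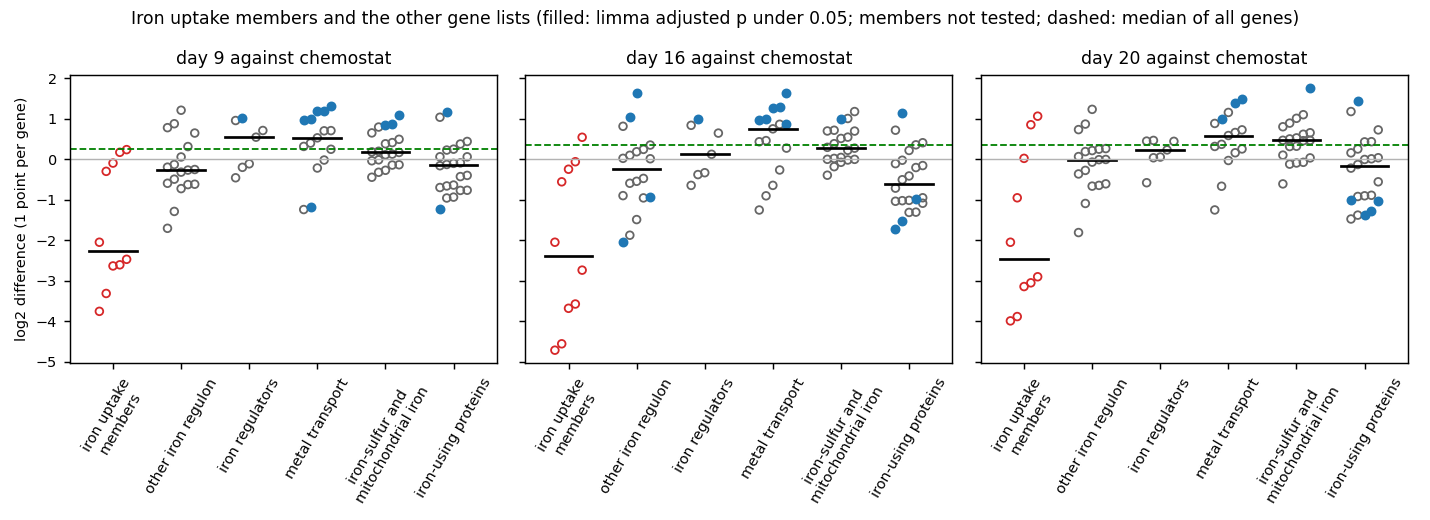
Log2 difference from the chemostat on days 9, 16 and 20 for the 10 iron uptake genes (red, not tested) and the genes of 5 related lists (filled where limma's adjusted p was under 0.05); black bars are list medians and the dashed line is the median of all genes. The iron uptake genes have medians of -2.26, -2.39 and -2.47, and the medians of the 5 lists lie between -0.61 and 0.75. The iron uptake genes were proposed from these same values and are left out of the lists, so nothing is read from the gap.

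A list of transporters, reductases and regulators of copper, zinc, manganese and further iron transport, such as FET4 and CCC1, held more genes that rose than fell. Of 15 tested genes, 5 rose and 1 fell on day 9, 6 rose on day 16 and 3 rose on day 20; as shares, 33.3%, 40.0% and 20.0% rose, where 11.4%, 16.6% and 10.5% of all genes rose. With 1 array left out, 1 to 6, 2 to 9 and 0 to 5 genes passed in either direction. The counts also depend on the scaling: 2, 3 and 0 rose under quantile scaling, 2, 2 and 0 under median scaling, and 1, 2 and 1 once the 3 arrays with high ACT1 ratios were left out. The median of the list was 0.53, 0.75 and 0.58 on the 3 days. None of the 15 passed on day 2 (limma, unadjusted p under 0.05 for 2, and for 8.57% of all genes).

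CUP2 (YGL166W), the copper-responsive activator of metallothionein genes, and CTR1 (YPR124W), the main copper importer, held their day 16 calls under all alternatives tried. CUP2 signals were 204, 213 and 198 in the chemostat, 255 and 288 on day 2, 468 and 472 on day 9, 489 and 517 on day 16, and 385 and 425 on day 20. The groups did not overlap, and the log2 difference was 1.2 ± 0.19 (SE, adjusted p = 0.00554) at day 9, 1.30 ± 0.19 (adjusted p = 0.00324) at day 16 and 0.98 ± 0.19 (adjusted p = 0.0137) at day 20. The day 9 call held under all alternatives too, and the day 20 call ended under quantile and median scaling (adjusted p = 0.0750 and 0.103) and without chemostat array 1 or 3 or either day 20 array (adjusted p up to 0.155).

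CTR1 signals were 85.9, 151 and 140.5 in the chemostat, 256 and 221 on day 2, 219 and 359 on day 9, 411 and 348 on day 16, and 303 and 389 on day 20. Every retentostat array thus lay above the chemostat. The log2 difference was 1.63 ± 0.32 on day 16 (SE, adjusted p = 0.00906). The calls of day 9 (1.2 ± 0.32, adjusted p = 0.0347) and day 20 (1.49 ± 0.32, adjusted p = 0.0183) ended under quantile and median scaling, and also once the 3 arrays with high ACT1 ratios were left out (adjusted p = 0.185 and 0.0986). The day 9 call also ended without any array of the chemostat, day 2 or day 20 or the culture 2 array of day 9 (adjusted p up to 0.176), and the day 20 call without chemostat array 1 or either day 20 array (adjusted p up to 0.194).

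SMF1, a manganese transporter gene, rose on days 9, 16 and 20 by 1.30, 1.26 and 1.39 ± 0.31 (SE, adjusted p = 0.0227, 0.0214 and 0.0210). SMF2, a relative that acts in intracellular vesicles, rose on days 9 and 16 by 0.96 and 0.97 ± 0.24 (adjusted p = 0.0289 and 0.0230). CTR3, the other surface copper importer, rose on the same days by 0.98 and 0.87 ± 0.27 (adjusted p = 0.0395 and 0.0485), and MAC1, the activator of copper uptake, on day 16 by 0.99 ± 0.31 (adjusted p = 0.0488). Each of these calls ended under median scaling, except that of SMF1 on day 9, and each ended once the 3 arrays with high ACT1 ratios were left out (adjusted p from 0.0571 to 0.241). With 1 array left out (adjusted p up to 0.278), the SMF1 calls ended without chemostat array 1 or 2 or the culture 2 array of the day tested, and on day 20 also without its culture 1 array. The SMF2 calls ended without chemostat array 2 or 3 or either array of the day tested, and on day 9 also without chemostat array 1 or either day 20 array. The CTR3 and MAC1 calls ended without any array of the chemostat, day 2 or day 20, or without the culture 2 array of the day tested.

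The fall of ZRT1, a zinc importer gene with 4 probe sets, on day 9 (-1.18 ± 0.35, SE, adjusted p = 0.0498) was not held by the mean of its probe sets (adjusted p = 0.158). It also ended under quantile scaling, with a floor of 1, once the 3 arrays with high ACT1 ratios were left out, and without any array of the chemostat, day 2 or day 20 or the culture 2 array of day 9 (adjusted p up to 0.257). FET4 (YMR319C), the low-affinity iron importer that works without oxygen, gave 258, 163 and 334 in the chemostat, 283 and 384 on day 2, 374.7 and 322 on day 9, 428 and 256 on day 16, and 549 and 523 on day 20. Its log2 difference on day 20 was 1.15 ± 0.34 (SE, adjusted p = 0.0539, and adjusted p = 0.0301 with the block), and the earlier days overlapped the chemostat.

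In iron-sulfur cluster synthesis and mitochondrial iron handling, 20 genes were tested, and few passed. CFD1, NBP35 and JAC1 rose on day 9 (3 genes, 15%), CFD1 on day 16 (5%) and YFH1 on day 20 (5%), shares that compare with 11.4%, 16.6% and 10.5% of all genes, and none passed on day 2 (limma, unadjusted p under 0.05 for 1, and for 8.57% of all genes). YFH1 (YDL120W), the frataxin gene, rose from 143 ± 20.4 (SD, n = 3) to 488 ± 113 (SD, n = 2), by 1.76 ± 0.39 (SE, adjusted p = 0.0192). Its call ended without any array of the chemostat or day 20 (adjusted p up to 0.207). CFD1, which encodes part of the cytosolic cluster scaffold with Nbp35, was at 1.08 ± 0.27 on day 9 and 0.996 ± 0.27 on day 16 (adjusted p = 0.0265 and 0.0298). NBP35 and JAC1, a co-chaperone gene of cluster transfer, were at 0.86 ± 0.23 and 0.84 ± 0.25 on day 9 (adjusted p = 0.0341 and 0.0477). The 4 calls of CFD1, NBP35 and JAC1 ended under quantile and median scaling (adjusted p of at least 0.0790) and without chemostat array 2 or 3. They also ended without either day 9 array (CFD1 and JAC1, day 9) or the culture 1 array alone (NBP35), without the culture 2 array of day 16 (CFD1, day 16), without chemostat array 1 or either day 20 array (NBP35 and JAC1), and without either day 2 array (JAC1), at adjusted p up to 0.157. Once the 3 arrays with high ACT1 ratios were left out, both CFD1 calls (adjusted p = 0.108 and 0.164) and the JAC1 call (adjusted p = 0.0920) ended. With the fixed block 5 genes rose on day 16 and 6 on day 20, where 27.1% and 21.3% of all genes rose, the median of the list being 0.28 and 0.47.

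Among 22 iron-using enzymes and proteins, falls outnumbered rises on day 16 and day 20, with 3 against 1 and 4 against 1, and 1 of each on day 9. As shares, 13.6% fell on day 16 and 18.2% on day 20, where 4.32% and 3.01% of all genes did. With 1 array left out, the genes passing in either direction numbered 0 to 3 on day 9, 2 to 12 on day 16 and 0 to 8 on day 20. Over the other alternatives they numbered 1 to 5, 2 to 10 and 0 to 13. Under median scaling, falls outnumbered rises over all genes too on these days. None of the 22 passed on day 2 (limma, unadjusted p under 0.05 for 3, and for 8.57% of all genes). BIO2 (YGR286C), the biotin synthase gene, fell from 927 ± 188 (SD, n = 3) to 319 ± 19.7 (SD, n = 2) on day 16, which is a difference on the log2 scale of -1.52 ± 0.25 (SE, adjusted p = 0.00461). ILV3 (YJR016C), a dehydratase gene of branched-chain amino acid synthesis, fell from 3279 ± 374.7 (SD, n = 3) to 1010 ± 292 (SD, n = 2), which is a difference on the log2 scale of -1.72 ± 0.29 (SE, adjusted p = 0.00508). Both day 16 calls held under all alternatives tried, and for both genes the 6 later arrays lay below the 5 earlier ones.

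The calls of BIO2 on day 20 (-1.29 ± 0.25, SE, adjusted p = 0.0121) and of ILV3 on days 9 and 20 (-1.24 and -1.04 ± 0.29, adjusted p = 0.0213 and 0.0430) were less stable. They ended without chemostat array 1 or, for day 20, either array of that day. The ILV3 calls also ended without chemostat array 2 or 3 and under quantile scaling (adjusted p = 0.0710 and 0.179), on day 9 without its culture 1 array and on day 20 without either day 2 array (adjusted p up to 0.292). Both day 20 calls ended once the 3 arrays with high ACT1 ratios were left out (adjusted p = 0.0620 and 0.0648). MET5, a sulfite reductase gene, was at -0.97 ± 0.29 on day 16 (adjusted p = 0.0401) and -1.01 ± 0.29 on day 20 (adjusted p = 0.0461). OLE1, the fatty acid desaturase gene, was at -1.37 ± 0.38 on day 20 (adjusted p = 0.0448). CYC1, a cytochrome c gene, was higher by 1.43 ± 0.35 on day 20 (adjusted p = 0.0283). Its signals on all retentostat arrays, from day 2 on, lay above the chemostat (1125 to 2455 against 599 to 946). CTT1, a catalase gene with signals of 9.0 to 30.4, was higher by 1.16 and 1.14 ± 0.27 on days 9 and 16 (adjusted p = 0.0215 and 0.0191). These calls ended without any chemostat array and under quantile or median scaling (adjusted p up to 0.299 over all alternatives). They also ended without either day 20 array (CYC1, OLE1 and both MET5 calls), either day 2 array (OLE1 and both MET5 calls), the culture 2 array of day 16 (MET5, day 16) or the culture 1 array of the day tested (CTT1). Leaving out the 3 arrays with high ACT1 ratios ended the calls of MET5 (adjusted p = 0.163 and 0.141), OLE1 (adjusted p = 0.0555) and CYC1 (adjusted p = 0.0659). With the block the falls on day 16 numbered 9, with ERG3, ERG11, ERG25, OLE1, RLI1 and RNR4 added, and 7 on day 20, where 8.88% and 5.77% of all genes fell.

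Among all other genes, those of the lists included, the closest in pattern to the iron uptake genes were found by Pearson's r, over the 11 arrays, with the mean of the standardised log2 signals of the 9 members that had a group mean of at least 50. The 8 highest of the 5082 genes ranked were TDA4 (r = 0.97), AHP1 (0.96), MVD1 (0.95), THR1 (0.94), BAT1 (0.94), INA1 (0.94), FRE6 (0.93) and ACS2 (0.93). AHP1 encodes a peroxiredoxin, MVD1 an enzyme of sterol precursor synthesis, THR1 and BAT1 enzymes of amino acid synthesis and ACS2 an acetyl-CoA synthetase. TDA4 signals were 606 to 721 on the 5 earlier arrays and 231 to 298 on the 6 later ones. FRE6 is the only gene of the iron regulon among the 8. CTH2 ranked 29th (r = 0.90), SIT1 91st (0.84) and HMX1 157th (0.79). Negative r were given by FTH1 (-0.66), FRE4 (-0.80), CUP2 (-0.90) and MAC1 (-0.93). Among the 9 members, FET3 and FIT2 were closest to the mean of the others (r = 0.98 for both), while FIT1 and FRE1 had 0.06 and -0.11. These values share the arrays and the chemostat and are given without a test.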

How the data were processed

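Total RNA of 11 samples was measured on 1-colour Affymetrix yeast arrays. The authors deposited 1 linear intensity per probe set, computed with GCOS 1.2 per the submitters' processing notes, which name no settings. Trimmed means of the arrays differed by at most 0.0311%. Of 9335 probe sets, 6504 were annotated to a single gene, 328 to several, 2443 to none, and 60 were controls. The brightest probe set per gene was kept (5656 genes), signals under 12 were set to 12 and taken to log2, and 79 genes at or under 12 on all arrays were left out. A gene table supplied names and gene order only, as the files name no build.

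Tests used limma 3.58.1 under R 4.3.3 (lmFit, eBayes, 1 mean per group over all 11 arrays, Benjamini-Hochberg over 5577 genes, threshold 0.05, 6 residual and 3.52 prior degrees of freedom, two-sided). The fit was also run on simulated data with independent normal noise on each array. These data held no culture effect and no arrays of high ACT1 ratio, so the run does not bear on either. Retentostat arrays of a replicate number carry the same culture code and were paired by it; their deviations from day means correlated between days at 0.227 to 0.690, whereas each chemostat array has its own code. A fixed term for the culture was therefore an alternative, beside other scalings, floors, probe-set rules and arrays left out.

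The members, the 5 gene lists and the naming rule were chosen with earlier results of these data known. The rule names at most 8 called genes per list, the 7 regulators, FET4, the genes flanking the FIT2 run and the 8 genes most alike. Of 20, 7, 16, 20 and 22 listed genes, 18, 7, 15, 20 and 22 were tested; ZRT2 was not analysed here.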

Additional observations from a re-analysis of the deposited data

How the results depend on the processing

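FIT2, FIT3, FTR1, FET3, ENB1 and FRE5 were below the chemostat on days 9, 16 and 20 under every alternative run that kept them (FRE5 was dropped with the dim genes), but sizes depended on the signal floor. For FRE5 the log2 difference was as small as -0.18 on each of these days. These genes had been sorted out by the same arrays, so nothing is read from their staying below. The median log2 difference of all 10 iron uptake genes, -2.26, -2.39 and -2.47 with the floor of 12, was -1.32, -1.65 and -1.93 on days 9, 16 and 20 with a floor of 50. With a floor of 1 it was -3.15 on day 16 and -2.97 on day 20, as it was over the members left when genes averaging under 50 were dropped. The count of other regulon genes called was 0 on day 9, but 1 under median scaling, 1 without the 3 arrays of high ACT1 ratio, 4 with the replicate block, and 0 to 2 with 1 array left out. On day 16 it was 4, but 7 with the block and 0 to 7 with 1 array left out. On day 20 it was 0, but 1 under quantile scaling, 2 under median scaling, 1 without the 3 arrays, 6 with only the 2 groups compared, 1 with the block and 0 to 2 with 1 array left out. For day 20 against day 2 it was 0, but 1 with the block and 1 with culture as a random block. Of 61 calls of named genes outside the members, 11 were kept under every alternative and 50 ended when some 1 array was left out. The 61 include calls of the genes most alike, which were picked by their correlation with the members on these same arrays. Nothing is read from how stable those calls were. The 11 kept were calls of TDA4, BAT1, INA1 and ACS2, picked in this way, and of CTR1, CUP2, ILV3 and BIO2 from the lists. Over all genes the count was 1, 842, 1167 and 753 on days 2, 9, 16 and 20 and 33 for day 20 against day 2. Over the alternatives it ran from 0 to 20, 327 to 1465, 406 to 2005, 50 to 1942 and 0 to 262. The split into lower and higher was 205 and 637 on day 9, 241 and 926 on day 16 and 168 and 585 on day 20, against 330 and 301, 426 and 342 and 358 and 187 under median scaling. The causes were not tested.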
